A study of Mus musculus with 40 samples.

Results

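The 10 genes described here, Adgre1, Apoe, Mertk, Trem2, Mrc1, Cd163, Dab2, Gpnmb, Spp1 and Cd68, are known for their expression in macrophages and in monocytes that become macrophages. They were taken by name, not by a measured value, and all 10 were found among the 45706 genes of the expression tables. The tables hold RNA-seq of sorted cells from mouse colon tumors, healthy colon and blood, 40 libraries in 10 groups of 4. Tumor-bearing mice carried floxed Apc alleles and Cdx2CreERT2, a tamoxifen-activated Cre that the Cdx2 promoter drives in colon epithelium, on what the labels give as a mixed C57Bl6/Sv background, its Sv number differing between samples, and received 1 injection of tamoxifen at 25 mg/kg when, per the labels, 8 to 10 weeks old. The study's methods give a wider age range. They gave tumor monocytes, tumor neutrophils, tumor epithelial cells, tumor stromal cells, blood monocytes and blood neutrophils. Healthy C57Bl6 mice without the transgene or an agent gave blood monocytes, blood neutrophils, colon epithelial cells and colon stromal cells. Between tumor-bearing and healthy mice, strain, transgene, tamoxifen and tumor cannot be told apart. There were no monocytes or neutrophils of healthy colon. Tissue was digested with enzymes and blood was not. Between tumor and blood, the tumor, entry into tissue and digestion therefore cannot be told apart. Monocytes were sorted as CD11b+ MHCII- Ly6C-high Ly6G- and neutrophils as CD11b+ MHCII- Ly6C-low Ly6G+ leukocytes, while epithelial cells were CD45- EpCAM+ and stromal cells CD45- EpCAM-. The macrophage gate of the study, CD11b+ MHCII+, is not analysed here. In 4 libraries, 3 of healthy blood monocytes and 1 of blood neutrophils from tumor-bearing mice, the label names 2 animals.

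Monocytes leave the blood and, in tissue, can mature into macrophages, which eat dead cells, break down their lipid and protein in lysosomes and signal to surrounding tissue. Cd68 is a lysosomal membrane protein of phagocytes, and Adgre1 codes for F4/80, the classical mouse macrophage surface antigen. Apoe carries lipid out of cells and Trem2 is a lipid-sensing receptor that signals through Tyrobp. Mertk is a receptor tyrosine kinase that binds dying cells through Gas6 and Pros1. Mrc1 (CD206) and Cd163 are scavenger receptors for glycoproteins and for the haemoglobin-haptoglobin complex, and Dab2 is an endocytic adaptor of clathrin-coated pits. Gpnmb is a glycoprotein of melanosomes and lysosomes, and Spp1 is osteopontin, a secreted ligand of integrins and CD44.

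Libraries held 10717873 to 38002939 counts, with a median of 16338416. Mitochondrial genes took 5.34 to 83.9% of the counts, most in epithelium. Tumor monocytes had few neutrophil markers, at 0.099 to 0.343% of their mean level in the tumor-bearing blood neutrophils (median over 8 genes), and the markers of classical monocytes were at 38.2 to 64.5% of their blood monocyte level. Tumor neutrophils kept 42.6 to 52.1% of the neutrophil markers in replicates 2 to 4 and 5.73% in replicate 1. Some sorted groups held markers of another cell type. The epithelial markers (10 genes, as a median percent of the mean level in tumor epithelium) were at 79.5, 12.7, 17.5 and 4.9% in tumor neutrophil replicates 1 to 4, at 0.902, 16.6, 3.7 and 3.46% in tumor monocytes, and at most 0.208% in all blood libraries. Tumor stromal replicates 1 and 2 were at 93.9 and 48.4% for epithelial markers and at 1.01 and 1.05% for endothelial ones, whereas replicates 3 and 4 were at 19.9 and 12.2% and at 90.3 and 105%, with the higher leukocyte markers. The library called tumor stromal replicate 4 here carries the label replicate 3, as replicate 3 does, and was renumbered. All 4 tumor stromal libraries lay at 0.961 to 4.12% of healthy colon stroma for fibroblast markers, so the group is called stromal only by its gate. Healthy stromal replicate 4 (18% for endothelial markers) and healthy epithelial replicate 4 (35.3% for epithelial markers, 83.9% mitochondrial counts) also stood apart.

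Cd68, Adgre1 and Apoe were the 3 highest members in both blood monocyte groups. In tumor monocytes Dab2 and Spp1 were above 8 RPKM in every library, while Adgre1 averaged 6.92. Levels are RPKM, the reads scaled to gene length and library size, which allows genes to be compared, and are given as mean ± SD of 4 libraries. Cd68 was the highest member in the 3 monocyte groups, at 91.2 ± 14.2 in healthy blood, 103 ± 62.2 in blood of tumor-bearing mice and 71.3 ± 11.3 in tumor. Cd163 did not exceed 0.231 in any library. Of the 10 members, 7 had their highest mean in a monocyte group. The others were Spp1, highest in tumor neutrophils at 32 ± 14.3, and Mertk and Gpnmb, highest in healthy colon stroma at 2.37 ± 0.561 and 1.54 ± 1.68. The last 2 ranks depend on the scaling: after rescaling by TMM library sizes Mertk was highest in healthy epithelium (2.14, with 1.58 in healthy stroma) and Gpnmb in tumor neutrophils (1.81, with 1.06 in healthy stroma). The library ranges of the leading group and the next group overlapped for each of these genes except Dab2.

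**Figure D1:**
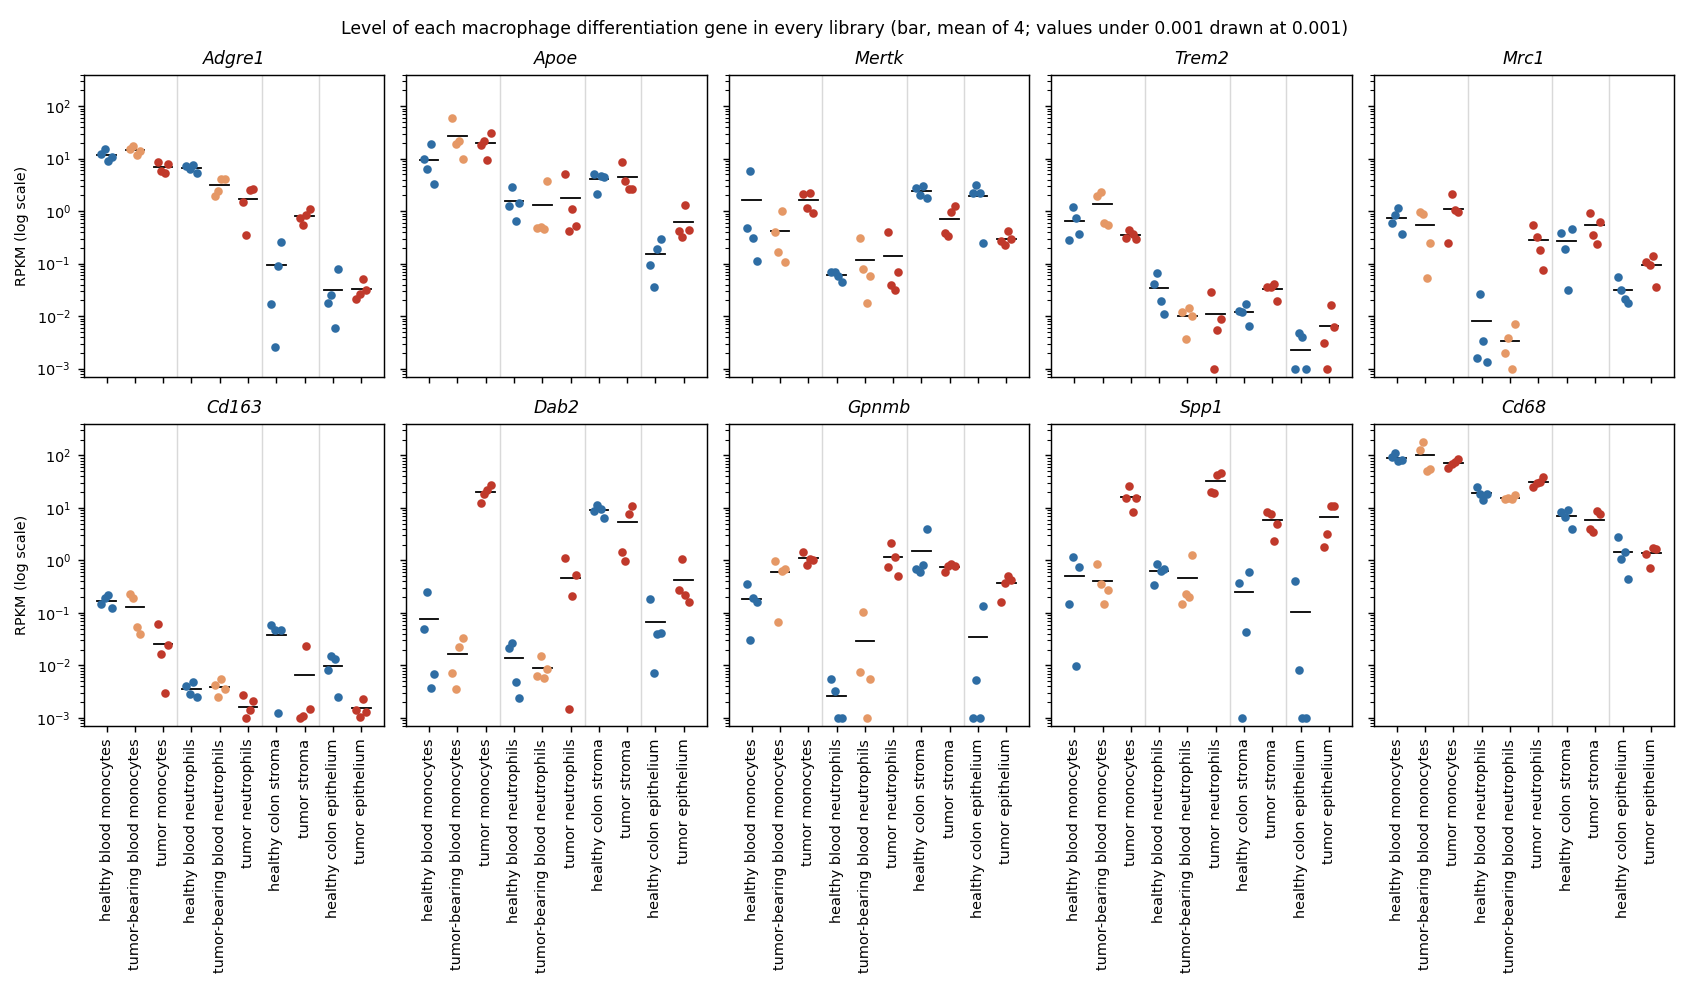
RPKM of each member (vertical axis, log scale) in the 4 libraries of each of the 10 groups (horizontal axis); points are libraries, black bars are means, blue is healthy mice, orange is blood of tumor-bearing mice and red is tumor. Dab2 in tumor monocytes (12.4 to 27.3) stands above every blood library (at most 0.25), and Spp1 is at 1.8 or more in all 16 tumor libraries. Values under 0.001 are drawn at 0.001.

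Changes were tested with edgeR, and a gene is called where its adjusted p (Benjamini-Hochberg, over all genes tested) was under 0.05 and its log2 fold change was past 1.5 in either direction. Between tumor and blood monocytes of tumor-bearing mice all 10 members passed the filter on low counts, and 3 were higher in the tumor (Dab2, Spp1, Mertk) and 1 lower (Trem2), where 7.76 and 3.89% of all genes tested were called higher and lower. Between tumor and blood neutrophils 7 members were tested and 3 were higher (Spp1, Mrc1, Gpnmb), beside 11.9% of all genes, and none was lower, beside 4.41%. Trem2, Cd163 and Dab2 were left out there by the filter. Between tumor and healthy stromal cells 1 of 8 tested members was higher (Spp1, beside 3.39% of all genes). Between tumor and healthy epithelial cells 1 of 7 was higher (Spp1, beside 7.52%) and 1 lower (Mertk, beside 7.88%). Dab2 in monocytes, Mrc1 and Gpnmb in neutrophils, and Spp1 in stroma and epithelium passed the filter through the tumor libraries. For these a lower call was hardly possible. In bulk samples, fewer cells of a type and less RNA per cell cannot be told apart.

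**Figure D2:**
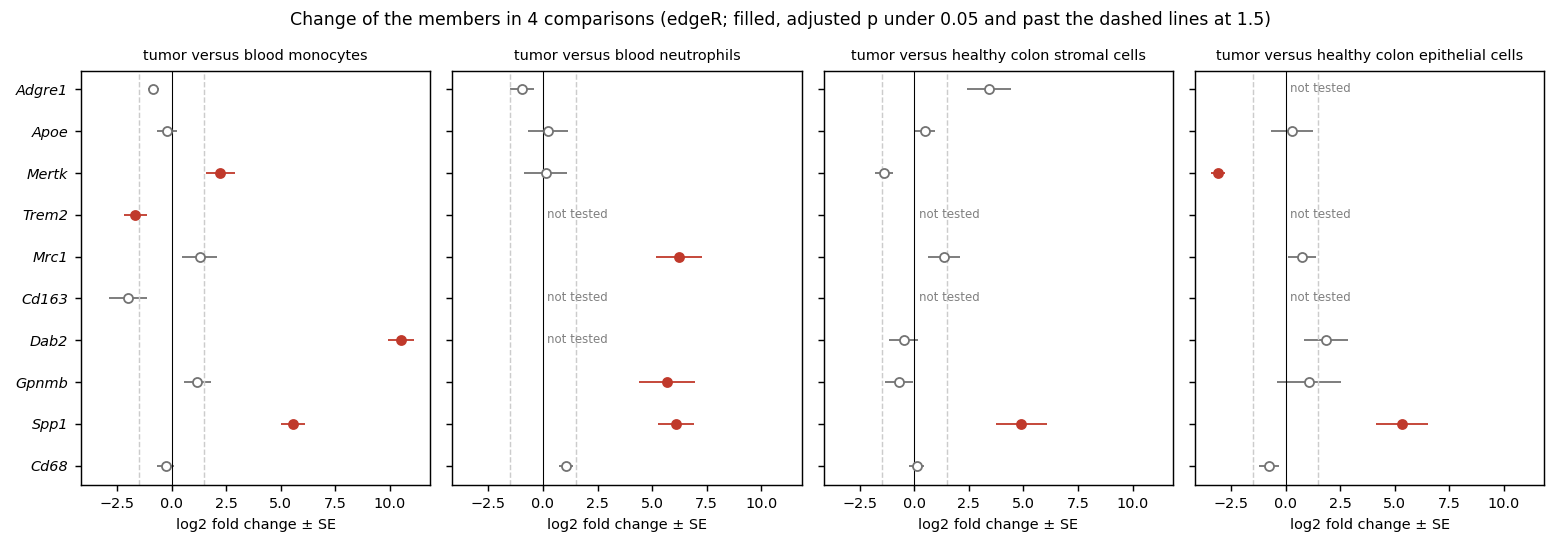
Log2 fold change (horizontal axis, with its SE) of the 10 members in tumor against blood monocytes, tumor against blood neutrophils, tumor against healthy stromal cells and tumor against healthy epithelial cells; filled red points were called, open points were not, and dashed lines mark 1.5. Spp1 is filled in all 4 panels, and Dab2 lies farthest to the right, at 10.52 in monocytes.

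Dab2 showed the largest change of any member. Tumor monocytes held 12.4, 18.7, 21.9 and 27.3 RPKM in replicates 1 to 4. Blood monocytes of tumor-bearing mice held 0.00703, 0.00363, 0.0223 and 0.0331 RPKM, from 13 counts or fewer per library, and healthy blood monocytes held 0.0484, 0.25, 0.00376 and 0.00698. No tumor library came near a blood library. The log2 fold change from blood to tumor was 10.52 ± 0.61 (SE, edgeR adjusted p = 5.39e-06), and leaving out each library in turn kept it between 10.21 and 11.05. Tumor epithelium, whose markers reached 16.6% in tumor monocytes, held 0.275, 1.05, 0.219 and 0.16 RPKM of Dab2. Healthy stroma held 6.49 to 11.5, and in the tumor monocytes the endothelial markers were at 0.0234 to 0.508% and the fibroblast markers at 0.0267 to 0.285% of healthy stroma. Of 5 lymphatic endothelial markers, Prox1 and Pdpn were called higher in tumor monocytes than in blood, beside 7.76% of all genes. Lyve1 was at no more than 2.22e-05 RPKM there, and Flt4 and Ccl21a averaged 0.0714 and 0.000391. Prox1 averaged 2.39 RPKM in tumor monocytes, 47.5 in tumor epithelium, 26.9 in tumor stroma and 1.69 in healthy stroma. Pdpn averaged 2.02, 0.117, 0.394 and 8.09 in the same groups. The part of these other cells in the Dab2 level was not tested.

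Outside the monocytes, Dab2 was highest in stroma. Healthy colon stroma held 8.89, 11.5, 9.71 and 6.49 RPKM, against at most 0.183 in healthy epithelium, a log2 difference of 5.83 ± 0.95 (edgeR adjusted p = 0.00132). In tumor stroma Dab2 was 1.46 and 0.965 in replicates 1 and 2 and 7.65 and 11.1 in replicates 3 and 4, and their endothelial markers were at 1.01, 1.05, 90.3 and 105%. The part of the endothelial cells in this was not tested. Tumor stroma as a group was not called against healthy stroma (log2 fold change -0.49 ± 0.67, edgeR adjusted p = 0.697). Without replicates 3 and 4, a choice made after seeing the values, Dab2 was called lower at -2.52. In tumor neutrophils Dab2 varied from 0.00146 in replicate 2 to 1.13 in replicate 1, with 0.208 and 0.529 in the others, while the blood neutrophils of the same kind of mice held at most 0.0154. Replicate 1 is the library with epithelial markers at 79.5%, and tumor epithelium held 0.16 to 1.05 RPKM; the part of epithelial RNA was not tested. With no filter on low counts, the neutrophil change was 5.32 ± 1.21 (edgeR adjusted p = 0.0159).

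Dab2 and Spp1, the members with the largest rise in tumor monocytes, are shown here with the 250 bases before their most upstream RefSeq start (build GRCm38.p6), beside Cd68, which was high in monocytes of blood and tumor alike and serves as contrast. Such a sequence was found for 9 of the 10 members. Capitals mark matches on either strand to TGANTCA, the AP-1 motif, or GAGGAA, the core of the PU.1 box. Of all 27025 promoters of this length, 6.85% hold the first and 23.1% the second. The E-box CACGTG, found in 6.04% of them, occurred in none of the 3. Dab2 lies at chr15:6299788-6440712 on the plus strand and Spp1 at chr5:104435118-104441050 on the plus strand, and Cd68 at chr11:69664213-69666153 on the minus strand (GENCODE M21). The windows are chr15:6299539-6299788, chr5:104434861-104435110 and chr11:69666171-69666420.
Dab2: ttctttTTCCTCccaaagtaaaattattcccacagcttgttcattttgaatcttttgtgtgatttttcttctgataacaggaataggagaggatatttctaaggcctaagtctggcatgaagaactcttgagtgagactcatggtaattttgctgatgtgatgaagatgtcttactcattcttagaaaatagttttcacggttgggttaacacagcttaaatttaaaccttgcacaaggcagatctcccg
Spp1: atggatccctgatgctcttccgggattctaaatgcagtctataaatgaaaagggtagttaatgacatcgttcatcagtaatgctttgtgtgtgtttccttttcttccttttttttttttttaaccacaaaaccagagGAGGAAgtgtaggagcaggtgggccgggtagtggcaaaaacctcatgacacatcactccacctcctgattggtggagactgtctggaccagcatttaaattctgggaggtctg
Cd68: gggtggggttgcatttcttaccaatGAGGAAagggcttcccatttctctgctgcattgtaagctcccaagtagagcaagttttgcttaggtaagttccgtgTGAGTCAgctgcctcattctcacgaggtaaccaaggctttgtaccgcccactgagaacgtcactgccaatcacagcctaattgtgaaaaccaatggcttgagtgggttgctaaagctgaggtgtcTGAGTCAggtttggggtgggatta
Dab2 and Spp1 each held 1 match to GAGGAA and none to TGANTCA, while Cd68, which was not called between blood and tumor monocytes, held 2 matches to TGANTCA and 1 to GAGGAA. A match is a run of letters and not a measured binding site. Dab2 overlaps the antisense gene Gm16311 and Mertk the antisense gene Gm14011, and as the counting is not stated to use strand, reads of such pairs cannot be told apart.

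Spp1 was called higher in tumor in every one of the 4 tumor comparisons. The reference was blood for monocytes and neutrophils and healthy colon for stroma and epithelium. Tumor monocytes held 15.8, 25.9, 8.28 and 15.7 RPKM and their blood counterparts 0.846, 0.358, 0.149 and 0.271, a log2 fold change of 5.58 ± 0.55 (edgeR adjusted p = 0.000103). Tumor neutrophils held 19.9, 19.4, 42.1 and 46.4 and blood neutrophils 0.149, 0.226, 0.197 and 1.29, a log2 fold change of 6.11 ± 0.82 (edgeR adjusted p = 0.00104). None of these ranges overlapped, and both calls held without each library in turn, at 5.3 to 6.16 in monocytes and 5.75 to 7.37 in neutrophils. Tumor epithelial libraries held 1.8 to 10.9 RPKM of Spp1 and tumor stromal libraries 2.35 to 8.36, and without tumor neutrophil replicate 1, which had the most epithelial markers, the neutrophil change was 6.35 ± 0.84 (edgeR adjusted p = 0.00225). The part of other cells in the Spp1 level was not tested. The difference between tumor monocytes and tumor neutrophils was just outside the threshold (log2 -1.66 ± 0.55, edgeR adjusted p = 0.0502), and a different change from blood to tumor was not detected between the cell types (log2 difference -0.43 ± 0.90, adjusted p = 0.833).

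In the epithelium, Spp1 was 1.8, 3.26, 10.9 and 10.7 RPKM in tumor and 0.409, 0.00834, 0.000932 and 0 in healthy colon, with no overlap (log2 fold change 5.34 ± 1.19, edgeR adjusted p = 0.00879). In stroma it was 8.36, 7.79, 2.35 and 4.97 in tumor and 0.369, 0.000104, 0.0427 and 0.606 in healthy colon (4.91 ± 1.17, edgeR adjusted p = 0.0335). The higher stromal values were those of replicates 1 and 2, the libraries with the epithelial markers. The stromal call was lost when healthy replicate 1 or 3 or tumor replicate 1 or 2 was left out, and when tumor replicates 1 and 2 were left out together, with the log2 fold change between 4.48 and 5.80 over the single libraries left out. Spp1 was not called between tumor-bearing and healthy mice in blood monocytes or blood neutrophils.

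**Figure D3:**
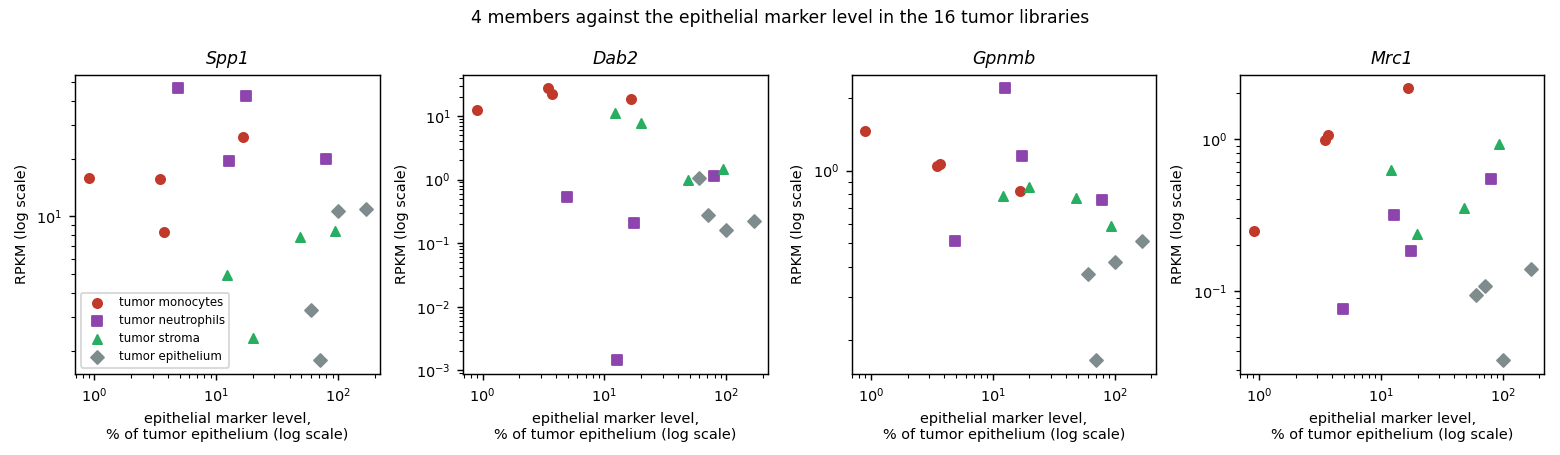
RPKM of Spp1, Dab2, Gpnmb and Mrc1 (vertical axes, log scale) against the median level of 10 epithelial markers as a percent of tumor epithelium (horizontal axis, log scale) in the 16 tumor libraries, 1 point each. Spp1 was higher in all 4 tumor neutrophil libraries (19.4 to 46.4) than in tumor epithelium (1.8 to 10.9), and Dab2 in tumor monocytes was above 12 at marker levels from 0.902 to 16.6%.

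Mertk, the receptor for dying cells, and Trem2 moved in opposite directions in monocytes, both close to the threshold. Mertk was 2.13, 1.15, 2.23 and 0.928 RPKM in tumor monocytes and 0.399, 0.164, 0.993 and 0.107 in blood monocytes of tumor-bearing mice; the lowest tumor library was just below the highest blood one. The log2 fold change was 2.24 ± 0.68 (edgeR adjusted p = 0.0453), and the call was lost when any library but blood replicate 3 was left out. Trem2 was 0.309, 0.433, 0.372 and 0.289 in tumor monocytes and 1.91, 2.35, 0.584 and 0.536 in blood, where replicates 1 and 2 stood above 3 and 4. Trem2 was lower in every tumor library than in every blood library (-1.67 ± 0.52, edgeR adjusted p = 0.0494), and the call was lost on leaving out any library but blood replicates 3 and 4. The Trem2 call was also lost in 7 of 11 other alternatives, limma-voom among them. Both genes were low: 1 healthy blood monocyte library, replicate 2, held 5.7 RPKM of Mertk against 0.111 to 0.479 in the other three.

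Mertk was also present outside the myeloid cells, and it was called lower in tumor than in healthy epithelium. In healthy epithelium it was 2.2, 3.14, 2.21 and 0.242 RPKM and in tumor epithelium 0.27, 0.223, 0.417 and 0.29. Healthy replicate 4, the library with 83.9% mitochondrial counts, lay within the tumor range. Rescaled by edgeR's TMM library sizes, it held 1.06 and the others 2.7, 2.85 and 1.96, against 0.226 to 0.297 in tumor, with no overlap. The log2 fold change was -3.10 ± 0.33 (edgeR adjusted p = 0.000135), and leaving out each library kept it between -3.29 and -2.96. Mertk was not called there with limma on log2(RPKM + 1). In stroma Mertk was 2.74, 2.01, 2.95 and 1.79 in healthy colon and 0.384, 0.33, 0.944 and 1.23 in tumor, again without overlap, but the fold change of -1.38 ± 0.42 was not called (edgeR adjusted p = 0.0717). The tumor stromal libraries with endothelial markers were the higher ones. Of the Mertk ligands, Gas6 was called lower in both comparisons. Its log2 fold change was -2.21 ± 0.30 in stroma (12.3 to 2.05 RPKM, edgeR adjusted p = 0.00558). In epithelium it was -1.66 ± 0.19 (6.55 to 2.88, edgeR adjusted p = 0.000223), with overlapping library ranges. Pros1 was not called in either, at -1.43 ± 0.58 in stroma (edgeR adjusted p = 0.167) and 0.90 ± 0.72 in epithelium (adjusted p = 0.423). Tumor stroma held only 0.961 to 4.12% of the fibroblast markers of healthy stroma. The part of this in the stromal values of Mertk and its ligands was not tested.

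Apoe did not separate tumor from blood. Tumor monocytes held 17.9, 22.1, 9.31 and 30.4 RPKM and blood monocytes of tumor-bearing mice 58.2, 19.4, 22.1 and 10, and the ranges overlapped (log2 fold change -0.20 ± 0.47, edgeR adjusted p = 0.818). Healthy blood monocytes were at 9.74, 6.37, 18.6 and 3.34, and the higher level in tumor-bearing mice (1.62 ± 0.56) did not pass (edgeR adjusted p = 0.364). In neutrophils Apoe was below 3 except for 5 in tumor replicate 1 and 3.75 in blood replicate 4 of tumor-bearing mice. Apoe in stroma was 2.12 to 5.12 in healthy colon and 2.61 to 8.64 in tumor.

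Adgre1 and Cd68 were already high in blood monocytes. Adgre1 was 12.1, 15.1, 9.2 and 10.6 RPKM in healthy blood monocytes, 15.5, 17.7, 11.6 and 13.7 in those of tumor-bearing mice and 8.74, 5.7, 5.38 and 7.85 in tumor monocytes. Every tumor library was below every blood library. The change was smaller than the fold threshold (-0.83 ± 0.23, edgeR adjusted p = 0.0346), so it was called only with no fold threshold. Cd68 was 57.7, 67.8, 75.4 and 84.3 in tumor monocytes and 127, 180, 49.7 and 54.8 in blood, with overlap (-0.27 ± 0.38, edgeR adjusted p = 0.683). In neutrophils, Adgre1 was highest in healthy blood, at 7.17, 6.22, 7.52 and 5.3, and was 1.92, 2.37, 4.17 and 4.11 in blood of tumor-bearing mice. The groups did not overlap, but the difference was not called (-1.01 ± 0.31, edgeR adjusted p = 0.0874). Tumor neutrophils held 1.51, 0.345, 2.49 and 2.61. Cd68 was 25.5 to 38.1 in tumor neutrophils and 14.8 to 17.8 in their blood counterparts, a change of 1.07 ± 0.32 that passed on p alone (edgeR adjusted p = 0.043).

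In tumor stroma, Adgre1 was 0.731, 0.545, 0.836 and 1.09 RPKM, against 0.0173, 0.00262, 0.0918 and 0.262 in healthy stroma. All tumor libraries were above all healthy ones, whether they held epithelial or endothelial markers. The fold change of 3.42 ± 0.99 was not called (edgeR adjusted p = 0.0626), and it was called without healthy replicate 4 and by limma-voom and DESeq2. Of the 12 core macrophage genes, 4 were called higher in tumor stroma (C5ar1, Lyz2, Cx3cr1 and Csf1r), beside 3.39% of all genes, and Maf was called lower. The median log2 fold change of the 12 was 2.55 beside 0.03 over all genes. The general leukocyte markers summed to 7.19 and 3.77 RPKM in tumor stromal replicates 1 and 2 and to 60.9 and 63.6 in replicates 3 and 4. Neutrophil markers were at 0.0639 to 8.69% of their level in tumor-bearing blood neutrophils. Of these markers Cxcr2 (4.76) and Csf3r (4.48) were called higher in tumor stroma and the others were not called. C5ar1 averaged 172 RPKM in tumor neutrophils and 59.3 in tumor monocytes. The part of leukocytes, neutrophils among them, in these values was not tested. Cd68 was 3.49 to 8.92 in tumor stroma and 3.9 to 9.28 in healthy stroma.

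The scavenger receptors among the members, Mrc1 and Cd163, were low in all cells. Mrc1 was 0.247, 2.15, 1.05 and 0.982 RPKM in tumor monocytes and 0.965, 0.9, 0.0522 and 0.245 in blood, with overlap (1.28 ± 0.80, edgeR adjusted p = 0.311). Cd163 was 0.061, 0.0166, 0.00296 and 0.024 in tumor monocytes, from at most 14 counts, and 0.231, 0.19, 0.0532 and 0.0399 in blood (not called, edgeR adjusted p = 0.15). No neutrophil library held more than 2 counts of Cd163. Mrc1 rose in neutrophils, with 0.543, 0.316, 0.183 and 0.0764 RPKM in tumor against at most 0.00713 in the blood of the same kind of mice. These are 417 counts in the 4 tumor libraries against 6 in the 4 blood libraries, a ratio of 77.2 (95% exact interval 35.2 to 212, for counting error only), and the fitted change was 6.23 ± 1.06 (edgeR adjusted p = 0.00297). No blood neutrophil library of tumor-bearing mice held more than 2.91 counts of Mrc1. It passed the filter on low counts through the tumor libraries, so a lower call was hardly possible. Mrc1 was highest in tumor neutrophil replicate 1, which had the most epithelial markers, and lowest in replicate 4, which had the least. Tumor epithelium held 0.0352 to 0.14 RPKM of Mrc1 and tumor monocytes 0.247 to 2.15. In the same comparison 4 of 5 tested MHC class II genes, 8 of 9 epithelial markers and 3 of 6 fibroblast markers were called higher in tumor neutrophils, beside 11.9% of all genes. The part of such other cells in the rise of Mrc1 and Gpnmb was not tested. Without each library in turn the change of Mrc1 stayed called, at 5.79 to 6.74.

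Gpnmb rose in neutrophils too. It was 0.758, 2.19, 1.15 and 0.511 RPKM in tumor neutrophils and 0.00751, 0.102, 0.000924 and 0.00555 in their blood counterparts, without overlap (5.68 ± 1.30, edgeR adjusted p = 0.0132). Without tumor neutrophil replicate 1 the change was 5.94 ± 1.40 (edgeR adjusted p = 0.0224). In monocytes it was 1.45, 0.82, 1.06 and 1.04 in tumor and 0.987, 0.067, 0.618 and 0.686 in blood, and was not called (1.17 ± 0.62, edgeR adjusted p = 0.232). Tumor epithelium held 0.165 to 0.511, at or below the lowest tumor neutrophil library. Healthy stroma held 0.677, 0.601 and 0.824 in replicates 1 to 3 and 4.05 in replicate 4. Healthy epithelial replicate 4 held 0.137 and the others at most 0.00528, and without replicate 4 Gpnmb and Apoe were called higher in tumor epithelium, with log2 fold changes of 7.43 and 2.26.

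The change from blood to tumor was compared directly between monocytes and neutrophils in 1 fit of 16 libraries, which uses the libraries of both comparisons above again. Dab2 rose more in monocytes (log2 difference 5.18 ± 1.32, edgeR adjusted p = 0.0349), 1 member beside 1.23% of all genes. Dab2 had been left out of the neutrophil comparison by the filter on low counts and entered this fit with its high counts in tumor monocytes. With no filter the Dab2 difference was 5.21 (edgeR adjusted p = 0.0356). On the log2 scale Mrc1 rose more in neutrophils (-4.82 ± 1.31, adjusted p = 0.048), 1 member beside 2.73%. This is set against a value near the floor, as blood neutrophils held at most 2.91 counts of Mrc1. In RPKM its mean went from 0.00332 to 0.28 in neutrophils and from 0.541 to 1.11 in monocytes. Both calls were near the threshold and were lost in 11 and 13 of the 16 fits that leave out 1 library. Dab2 stayed called only without blood monocyte replicate 4, tumor monocyte replicate 2 or tumor neutrophil replicate 1, 2 or 4, and Mrc1 only without blood monocyte replicate 3 or tumor neutrophil replicate 2 or 4. Gpnmb had a difference of -4.39 ± 1.38 that was not called (edgeR adjusted p = 0.0798).

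Set side by side in the tumor, monocytes were called higher than neutrophils for 4 of 9 tested members (Dab2, Trem2, Mertk, Apoe; 4% of all genes were called higher), with log2 differences of 5.08 ± 1.13, 4.53 ± 0.87, 3.28 ± 0.68 and 3.18 ± 0.63 (the median over all genes was -0.31). Against tumor stroma 5 of 9 were higher (Adgre1, Apoe, Trem2, Cd68, Spp1; 6.9% of all genes), but with the animal as a block 2 (Adgre1 and Cd68) were called and Apoe, Trem2 and Spp1 were not. Against tumor epithelium all 9 tested were higher (14.2% of all genes), from 1.60 for Spp1 to 7.95 for Adgre1, and 7 of them with the animal block, without Spp1 and Gpnmb. The Spp1 call was lost without tumor monocyte replicate 1, 2 or 4 in both, without stromal replicate 1, 3 or 4 in the first and without epithelial replicate 1 or 2 in the second, where the Gpnmb call was lost without tumor monocyte or epithelial replicate 1. These 3 contrasts share the tumor monocyte libraries, and some animals gave more than 1 cell type. A gene high in 1 cell type passed the filter on low counts for all. Trem2 entered through tumor monocytes, with at most 7.87 counts in a tumor neutrophil library, 12.1 in a stromal and 7.01 in an epithelial one. Adgre1 held at most 14.7 counts in tumor epithelium, so its 7.95 is set against a value near the floor. A higher call of these 2 members there was close to given by the filter. In blood of tumor-bearing mice, 6 of 9 members were higher in monocytes than in neutrophils (Apoe, Trem2, Mrc1, Cd163, Gpnmb, Cd68), beside 23% of all genes. The Gpnmb call was lost without monocyte replicate 1 or neutrophil replicate 1 or 4. Trem2, Mrc1 and Cd163 passed the filter through monocytes, as the neutrophil libraries held at most 4.56, 2.91 and 1.47 counts of them. By title, some of these monocyte and neutrophil libraries come from the same animal, which the main fit did not use. In healthy colon, 2 of 6 tested members were higher in stroma than in epithelium (Dab2 and Apoe; 19.4% of all genes), and the Apoe call was lost in 7 of 8 fits that leave out 1 library, all but that without epithelial replicate 4.

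No member was called in blood between tumor-bearing and healthy mice. In blood monocytes none of 10 tested members was called by edgeR or by any alternative, beside 0.209% of all genes called in either direction, and 2 had an unadjusted p under 0.05 (Apoe and Gpnmb). In blood neutrophils none of 5 was called, beside 4.01% of all genes, and 1 had an unadjusted p under 0.05 (Adgre1).

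Genes that act with the members were counted by list. The counts stand beside 7.76% of all genes called higher and 3.89% lower in tumor monocytes, and 11.9 and 4.41% in tumor neutrophils, and no list was tested against them. Of 12 core macrophage genes, all tested, 5 were higher in tumor than in blood monocytes and none lower, with a median log2 fold change of 0.68 beside -0.03 over all genes. Among them were the complement genes C1qa (8.11), C1qb (2.71) and C1qc (3.48) and the C5a receptor C5ar1 (4.31). C5ar1 reached 59.3 RPKM in tumor monocytes from 3.59 in blood, whereas C1qa reached only 0.485. Csf1r, the receptor for the macrophage growth factor, was 71.1 in tumor and 93.2 in blood and was not called. Of 10 resident macrophage genes only 3 were expressed enough to be tested, and 1, the scavenger receptor Stab1, was higher (4.16 ± 0.33, edgeR adjusted p = 2.36e-05). Timd4, Marco, Vsig4, Clec4f and Cd5l averaged 0.00126 RPKM or less in tumor monocytes.

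In the lipid and lysosome list, changes were called in both myeloid cells. In monocytes 6 of 17 tested genes were higher and 1 lower (median 1.48 beside -0.03), and in neutrophils 6 of 17 were higher and none lower (median 0.86 beside 0.11). The cholesterol exporter Abca1 was called in both, at 5.36 ± 0.27 in monocytes (0.708 to 24 RPKM, edgeR adjusted p = 2.18e-06) and 4.78 ± 0.54 in neutrophils (0.45 to 11.8, adjusted p = 0.000605). So were the haem oxygenase Hmox1 (2.88 and 2.17), the lipid droplet protein Plin2 (1.68 and 2.22) and the tetraspanin Cd9 (5.68 and 1.82). The fatty acid transporter Cd36 was called higher in monocytes (3.01), and lipoprotein lipase, Lpl, was called lower there (0.109 RPKM in tumor and 1.04 in blood). Of the transcription factors, 5 of 16 were higher and 1 lower in monocytes (median 0.63) and 6 of 15 were higher in neutrophils (median 1.85). Bhlhe40 was the largest in monocytes at 4.42 ± 0.50 and was 5.94 ± 0.60 in neutrophils. Mitf, a regulator of Gpnmb and lysosomal genes, was 1.03 RPKM in tumor and 0.999 in blood monocytes.

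Among 20 genes of receptors, ligands and adaptors that work with the members, 2 of 19 tested were higher in tumor monocytes and none lower, a share near that of all genes. These were Cd44, the osteopontin receptor (2.08 ± 0.32, 55.9 to 196 RPKM, edgeR adjusted p = 0.00158), and Gas6 (7.43 ± 1.31, adjusted p = 0.00348). Gas6 reached 0.545 RPKM in tumor monocytes, and tumor epithelium, whose markers were at up to 16.6% there, held 2.88; the part of epithelial RNA was not tested. In neutrophils 3 of 19 were higher (Gas6, Axl, Itgb1) and 1 lower (Itgb3), again near the share of all genes. Tyrobp, through which Trem2 signals, was 123 RPKM in tumor and 187 in blood monocytes and was not called. Of 8 classical monocyte markers, 1 was called higher in tumor monocytes (Cd14, 4.62 ± 0.40) and none lower. Of the 8 immediate early and heat shock genes that cell dissociation can raise, 5 were higher in tumor than in blood monocytes and 4 in tumor than in blood neutrophils; their part in the changes of the members was not tested.

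**Figure D4:**
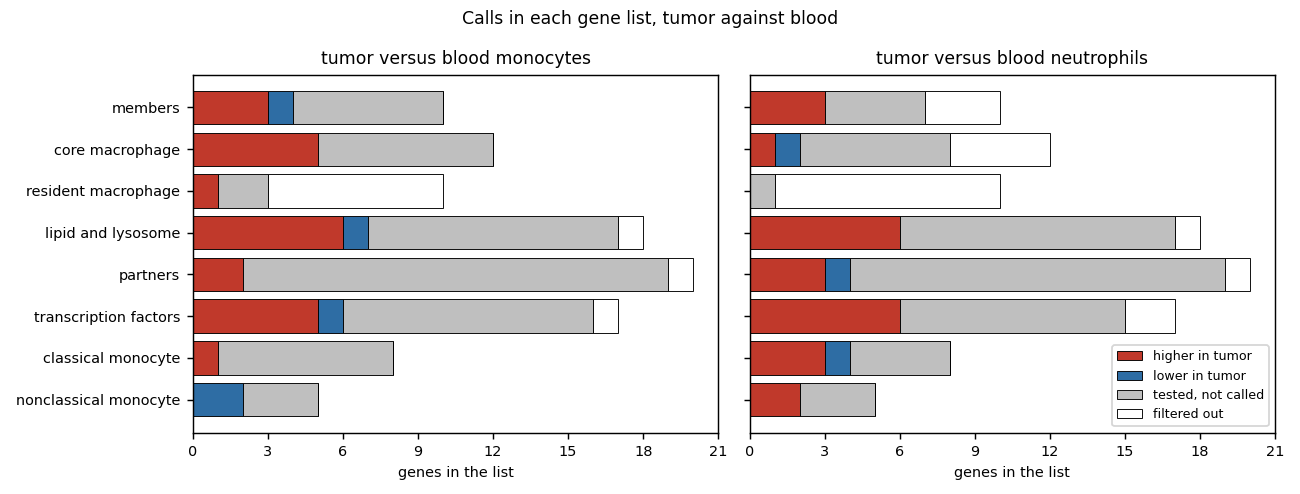
Number of genes (horizontal axis) in each of 8 lists that were called higher in tumor (red), called lower (blue), tested and not called (grey) or filtered out (white), for tumor against blood monocytes (left) and neutrophils (right). The members have 3 red and 1 blue gene in monocytes and 3 red in neutrophils, and the lipid and lysosome list has 6 red genes in each.

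As a description over all 40 libraries, the genes whose log2(RPKM + 1) followed a member most closely were found among 8241 genes with a mean of at least 1 RPKM. They were Csf1r and Lair1 for Adgre1 (Pearson r of 0.97 for both), Lgmn for Apoe (0.86), Atp2b4 and Nr4a2 for Dab2 (0.95 and 0.93), Tes and Gm4907 for Spp1 (0.89 for both), Ccl2 and Homer1 for Gpnmb (0.84 and 0.82) and Tnfrsf1b and Nrros for Cd68 (0.95 for both). For the low members they were Slc30a1 and Uap1 for Mertk (0.79 and 0.76), C1qb and Arl5c for Mrc1 (0.84 and 0.80), Lce1m and Atp13a2 for Trem2 (0.92 and 0.90) and Padi2 and Calhm2 for Cd163 (0.92 and 0.89). The 40 points share cell types, animals and library properties, so these values were not tested.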

How the data were processed

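RNA of sorted cells was amplified to cDNA and sequenced, and 40 libraries in 10 groups of 4 were used. The authors aligned reads to mm10 with Bowtie 2 and deposited a table of expected counts per gene, which were rounded to whole numbers here (99.6% of values above 0 were not whole), and a table of RPKM values, the same counts scaled by gene and library constants. Totals were 10717873 to 38002939 counts. Ensembl identifiers were matched to GENCODE M21 symbols. Comparisons were fitted with edgeR 4.0.16 (TMM, filterByExpr, robust quasi-likelihood; R 4.3.3), each over its own groups, except that the 3 tumor cell type contrasts share 1 fit of 16 libraries. The SE is the log2 fold change divided by the root of F. limma 3.58.1 and DESeq2 1.42.0 were alternatives, as were other scaling, filters, blocks and leaving out each library. The fits were tested on simulated data. The members and lists were chosen with earlier results of these data known. All 10 members are named throughout, and from each list up to 4 called genes with the largest change or its defining genes. Hmox1 and Plin2 in monocytes, the lymphatic markers, and Gas6 in stroma and epithelium were added after their values were seen. The values of 1 listed gene are not reported here. Labels number samples within groups. By title, the libraries within a group come from different animals or pairs of animals. The p-values measure the spread between these libraries, technical spread included. The interval on pooled counts covers counting error only, since amplified reads are not independent molecules.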

Additional observations from a re-analysis of the deposited data

Results flagged for a closer look

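In 13 of 100 sets of 4 libraries (1 member in 1 group), 1 library stood apart from the other three by Dixon's test. The test flags about 1 set in 20 by chance where values are normally distributed. It was run on RPKM without a log, and every flagged library was the highest of its set, so that rate need not hold here. Most of these sets hold low values. Apoe was 3.75 RPKM in replicate 4 of blood neutrophils from tumor-bearing mice, against 0.455 to 0.505 in the others. It was 5.0 in tumor neutrophil replicate 1 (others 0.419 to 1.09) and 1.32 in tumor epithelial replicate 3 (others 0.321 to 0.44). Mertk was 5.7 in healthy blood monocyte replicate 2, the highest Mertk value of all 40 libraries, against 0.111 to 0.479. It was 0.409 in tumor neutrophil replicate 1 (others at most 0.0681). Mrc1 was 0.0264 in healthy blood neutrophil replicate 2 (others at most 0.0033), and Cd163 was 0.0236 in tumor stromal replicate 3 (others at most 0.00149). Dab2 was 1.05 in tumor epithelial replicate 2 (others at most 0.275).

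Gpnmb stood apart in 3 groups, at 0.102 in replicate 2 of blood neutrophils from tumor-bearing mice (others at most 0.00751), at 4.05 in healthy stromal replicate 4 (others at most 0.824) and at 0.137 in healthy epithelial replicate 4 (others at most 0.00528). The last 2 are the healthy libraries with the lowest endothelial and epithelial markers of their groups. Spp1 was 1.29 in replicate 4 of blood neutrophils from tumor-bearing mice (others at most 0.226), the library with the high Apoe, and 0.409 in healthy epithelial replicate 1 (others at most 0.00834).

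An interaction term in edgeR was called for 2 members, that is, their tumor against blood fold changes were unequal in monocytes and neutrophils. The log2 value, monocytes minus neutrophils, was -4.82 for Mrc1 and 5.18 for Dab2.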

How the results depend on the processing

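Over 99 fold changes of members, 2247 alternative values were computed: 2013 kept direction and call, 110 lost the call, 61 gained it, 62 that were not called changed sign, and 1 called value reversed. The Mrc1 difference between cell types was 0.09 with limma on log2(RPKM + 1), a pseudocount above most Mrc1 values. Dab2 and Spp1 in monocytes and Spp1 in neutrophils stayed called in every alternative run. Members called between tumor and blood monocytes went from 4 to 2 with no filter, limma on log2(RPKM + 1) or 1 fit of all libraries (2 to 4 on leaving out a library), and between tumor and blood neutrophils from 3 to 1 with log2(RPKM + 1) (3 to 4). In stroma 1 became 3 with limma-voom or log2(RPKM + 0.1), 2 with DESeq2 or 1 fit of all libraries, and, in alternatives chosen after seeing the data, 0 without tumor replicates 1 and 2 and 3 without replicates 3 and 4 (0 to 2 on leaving out a library). In epithelium 2 became 1 with log2(RPKM + 1) (2 to 4). Between blood monocytes and neutrophils 6 became 3 with log2(RPKM + 1) (5 to 7), and between healthy stroma and epithelium 2 became 4 with limma-voom or log2(RPKM + 0.1) and 1 with RLE (1 to 3). Tumor monocytes against stroma fell from 5 to 2 with an animal block (4 to 6), and against epithelium from 9 to 4 with log2(RPKM + 1) (7 to 9). The cell type difference went from 2 to 1 with limma-voom, no filter, log2(RPKM + 1) or log2(RPKM + 0.1) (0 to 2). The cause was not tested.

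Libraries with the same replicate number did not deviate together (correlations of -0.13 to 0.21, with no comparison over 0.1 in all 4 pairs). The main fits used no pairing. By their titles, some libraries with the same number do come from the same animal, but most such pairs do not. Between tumor and blood neutrophils no pair with the same number does. The check by replicate number therefore cannot tell whether libraries of the same animal deviate together. Titles name animals shared between tumor cell types, which the animal block above uses. They also name some shared between blood monocytes and neutrophils and between blood and tumor. With a replicate block, 3 members were called in stroma and 1 for the difference between cell types, and the other counts stayed within 1.5 times. The share of calls that were higher in tumor monocytes was 66.6% and became 46.6% with log2(RPKM + 0.1). Cd163, Trem2 outside monocytes and Mrc1 in blood neutrophils rest on few counts, which limits any statement on them.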
